A study of Arabidopsis thaliana with 12 samples.

Results

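Wild-type seedlings of Arabidopsis thaliana (ecotype Col-0) that received isoxaben, an inhibitor of cellulose synthesis, are compared here with Col-0 seedlings that received only its solvent DMSO. By the sample titles, 3 Col-0 libraries were labelled isoxaben and 3 were labelled DMSO, which makes 6 of the 12 libraries of the series. Seedlings of both groups were 6 days old and had grown in shaken flasks of liquid medium with sucrose under long days. Both groups were moved into fresh medium and collected after 1 h, with 600 nM isoxaben or with as much DMSO. The other 6 libraries hold the same treatments of ixr1-1, a line made resistant by a change in the cellulose synthase gene CESA3, and serve here for a comparison of the genotypes. By the labels, the seedlings of a single flask were split into a treated and a solvent flask, but which libraries share a culture, and whether the 3 of a group stem from separate cultures, is not stated. P-values therefore reflect only how these libraries vary, in part perhaps for technical reasons.

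Cellulose of growing walls is made at the plasma membrane by complexes that hold CESA1, CESA3 and CESA6-type catalytic subunits and move along cortical microtubules. Isoxaben blocks this synthesis within minutes, and the complexes disappear from the plasma membrane. Arabidopsis seedlings are known to monitor the weakened wall through receptor kinases such as THESEUS1 and FEI2 and through stretch-responsive calcium channels, and hours later they make jasmonate, salicylate and ectopic lignin.

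Col-0 isoxaben libraries held 10490825, 17963734 and 14448316 counts and Col-0 DMSO libraries 15140660, 14733295 and 19470898 counts. Of 33602 genes, 20379 had enough counts to be tested with edgeR over the 12 libraries, and levels are given as CPM, counts per 1000000 counts of a library scaled by edgeR's TMM factors. The first principal component of the 6 Col-0 libraries carried 32.4% of the variance and put all isoxaben libraries on one side and all DMSO libraries on the other. Markers of shoots and of roots were both present, as in whole seedlings, with a summed shoot marker level of 22760 to 25470 CPM in isoxaben libraries and 23640 to 24540 CPM in DMSO libraries and a summed root marker level of 183.1 to 216.0 CPM in isoxaben libraries and 195.3 to 225.7 CPM in DMSO libraries. Seed storage and oil body markers reached a summed 85.98 to 582.5 CPM in the ixr1-1 libraries, against 0.0965 to 0.209 CPM in the isoxaben and 0.367 to 0.492 CPM in the DMSO libraries of Col-0. The ixr1-1 libraries thus stood apart from those of Col-0 in seed transcripts, and the part of these in the comparison of the genotypes was not tested. These are bulk samples, in which fewer cells of a type and less RNA per cell cannot be told apart.

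After 1 h of isoxaben, more genes rose than fell. Those that rose included the danger peptide gene PROPEP3, the calcium channel gene CNGC19 and the transcription factor genes ERF13 and WRKY40, and those that fell included the pectin methylesterase inhibitor gene AT4G25250, the arabinogalactan protein gene AGP4 and the root hair gene COBL9. At a Benjamini-Hochberg adjusted p of 0.05 in edgeR's quasi-likelihood test, 125 genes (0.613% of those tested) rose and 34 (0.167%) fell, 159 or 0.780% in all. Risen genes had a median log2 fold change of 1.1 (71 rose by at least 2-fold and 28 by at least 4-fold) and fallen genes one of -0.68 (6 fell by at least 2-fold and 0 by at least 4-fold), against a median of -0.0014 over all tested genes. The risen genes summed to 2140, 2068 and 2006 CPM in the isoxaben libraries, against 1248, 1264 and 1166 CPM in the DMSO libraries. The fallen genes summed to 488, 463 and 458 CPM in the isoxaben libraries, against 643, 696 and 748 CPM in the DMSO libraries. The isoxaben and DMSO libraries did not overlap in any of the 125 risen genes and overlapped in 1 of the 34 fallen genes, AT1G19900, a gene annotated as related to glyoxal oxidase; over all tested genes, isoxaben libraries lay entirely above the DMSO libraries in 6.86% and entirely below in 5.97%.

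The extent of the response depended on which libraries entered the fit. With only the 6 Col-0 libraries, 189 genes rose and 54 fell. With 1 of the 12 libraries left out, between 64 and 149 genes rose and between 7 and 44 fell. The risen count was 64 without DMSO library 3 and 72 without isoxaben library 2, and the fallen count was 7 without isoxaben library 2, 13 without DMSO library 3, 18 without isoxaben library 3 and 19 without DMSO library 2. In all 12 of these fits, 60 risen and 6 fallen genes kept their calls. Exons of 14 called genes overlap a gene on the opposite strand, among them PEPR2, AT5G39670, WRKY40, WRKY33, ATAF2, NAC102, MYB73, GRI and AT1G08590. How strand was treated in counting is not stated in the labels, so reads of these genes and of their partners may not have been told apart.

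**Figure D1:**
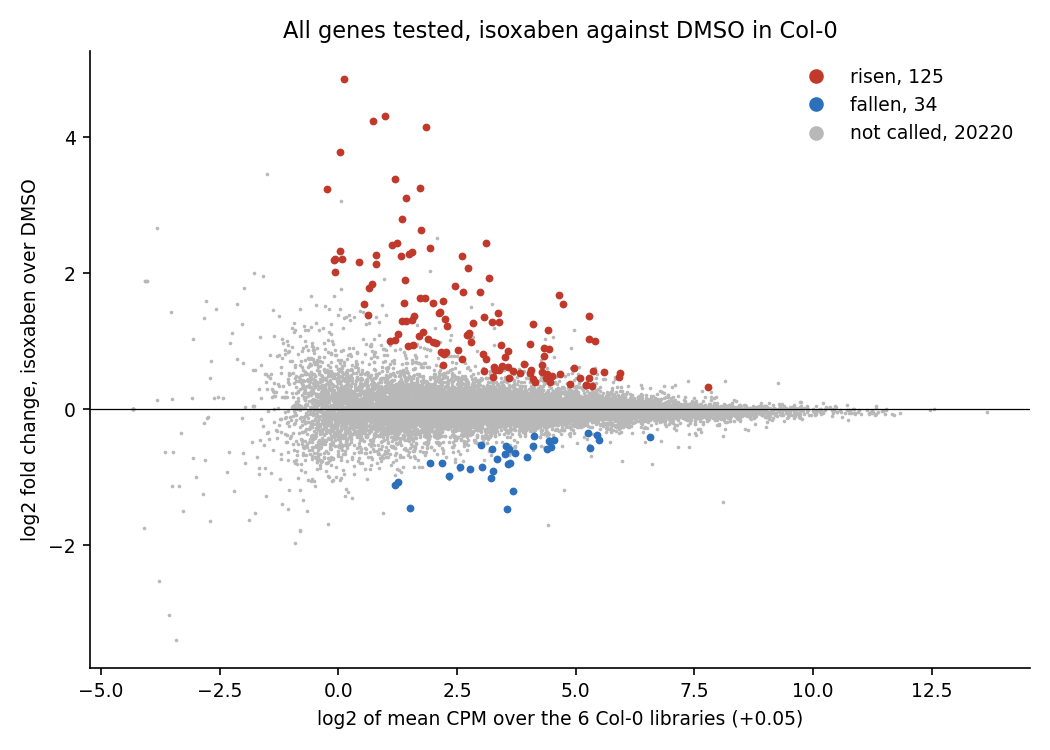
Each point is 1 of the 20379 tested genes, placed by the log2 of its mean CPM over the 6 Col-0 libraries (plus 0.05) and by its log2 fold change, isoxaben over DMSO. The 125 risen genes (red) reach higher above 0 than the 34 fallen genes (blue) reach below it, and most called genes sit at low to middle levels.

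Promoters, taken as the 250 bases before the RefSeq gene start on TAIR10.1, were searched on both strands for short words known as sites of stress factors. The W box letters TTGACC or TTGACT, bound by WRKY factors, were found in 47.2% of the 125 risen and 20.6% of the 34 fallen promoters, against 28.5% of the 20300 promoters of tested genes. The word CGCGTT, bound by calmodulin-binding CAMTA factors in early stress responses, was found in 10 (8.0%) of the risen, 0 of the fallen and 2.85% of all promoters. GCCGCC, the GCC box of ERF factors, was in 5.6% of the risen, 0 of the fallen and 1.95% of all promoters. CACGTG, the G box, was in 4.8% of the risen and 7.34% of all promoters. ACGCGT, which can overlap CGCGTT, was in 5.6% of the risen and 1.83% of all promoters. These are matches of letters and not measured sites.

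The promoters of 6 called genes are printed 5′ to 3′ on the strand of the gene, from RefSeq TAIR10.1, with the CGCGTT, W box and GCC box letters and their reverse complements in capitals, because they show these words in risen genes of several functions and none of them in the gene that fell most. They are those of the expansin-like gene EXLA3 (chr3:16892452-16892701, plus strand), the F-box gene PP2-B14 (chr1:21063048-21063297, minus strand), the calcium channel gene CNGC19 (chr3:6044752-6045001, plus strand), the danger peptide gene PROPEP3 (chr5:25939312-25939561, plus strand), the glutathione transferase gene GSTU12 (chr1:26335631-26335880, minus strand) and the pectin methylesterase inhibitor gene AT4G25250 (chr4:12934312-12934561, plus strand).
EXLA3: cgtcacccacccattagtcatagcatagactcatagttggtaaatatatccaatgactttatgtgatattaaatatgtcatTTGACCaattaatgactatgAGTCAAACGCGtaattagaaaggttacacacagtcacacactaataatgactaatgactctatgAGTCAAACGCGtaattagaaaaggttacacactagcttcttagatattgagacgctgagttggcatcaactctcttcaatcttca
PP2-B14: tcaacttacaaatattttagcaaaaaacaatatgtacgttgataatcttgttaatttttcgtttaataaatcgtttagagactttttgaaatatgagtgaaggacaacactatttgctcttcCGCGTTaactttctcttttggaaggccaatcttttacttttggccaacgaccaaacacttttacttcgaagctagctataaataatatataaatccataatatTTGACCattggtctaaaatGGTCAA
CNGC19: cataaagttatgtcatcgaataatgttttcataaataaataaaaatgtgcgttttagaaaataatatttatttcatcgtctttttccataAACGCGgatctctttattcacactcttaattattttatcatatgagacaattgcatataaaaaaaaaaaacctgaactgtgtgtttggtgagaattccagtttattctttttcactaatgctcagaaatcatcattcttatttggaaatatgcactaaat
PROPEP3: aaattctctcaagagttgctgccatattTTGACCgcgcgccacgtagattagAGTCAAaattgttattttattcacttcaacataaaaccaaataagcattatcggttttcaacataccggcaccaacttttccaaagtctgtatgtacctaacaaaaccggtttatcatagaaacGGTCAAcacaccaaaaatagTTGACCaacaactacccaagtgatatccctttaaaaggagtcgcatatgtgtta
GSTU12: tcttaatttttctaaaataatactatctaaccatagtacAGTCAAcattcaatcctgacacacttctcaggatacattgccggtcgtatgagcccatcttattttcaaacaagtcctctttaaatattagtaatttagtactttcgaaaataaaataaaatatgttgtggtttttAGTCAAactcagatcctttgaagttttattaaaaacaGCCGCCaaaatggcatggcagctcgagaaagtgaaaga
AT4G25250: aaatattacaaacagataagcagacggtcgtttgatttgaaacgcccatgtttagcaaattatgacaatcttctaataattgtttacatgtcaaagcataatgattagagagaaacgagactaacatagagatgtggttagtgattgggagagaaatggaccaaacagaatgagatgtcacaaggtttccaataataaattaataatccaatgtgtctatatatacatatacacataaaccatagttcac

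In EXLA3 the reverse complements of TTGACT and CGCGTT stand side by side with 1 base shared, at -149 and -144 from the gene start and again at -85 and -80. PP2-B14 held CGCGTT at -128 and W box letters at -25 and -6, and CNGC19 held CGCGTT at -160 with no W box letters in this window. PROPEP3 held 4 W box words, at -222, -198, -74 and -54, whereas GSTU12 held a GCC box at -38 and W box letters at -211 and -75. The promoter of AT4G25250 held none of these words, and neither did those of ERF13 and WRKY40 among the risen genes. The printed promoters of risen genes were picked because they hold the words, so they do not stand for all risen genes. CGCGTT or W box letters were found in 52.0% of risen, 20.6% of fallen and 30.4% of all promoters.

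Peptide danger signals came first in the share of members that moved. PROPEP genes encode precursors of Pep peptides, which are released from damaged cells and bound by the receptor kinases PEPR1 and PEPR2. Of the 9 tested genes for precursors and receptors, 5 rose (55.6%, against 0.613% of all tested genes) and none fell. The median log2 fold change of the 9 was 0.82. PROPEP3 (chromosome 5, 25939574 to 25940059), whose promoter with 4 W box words is printed above, had 4.83, 5.04 and 4.53 CPM in the isoxaben libraries, against 0.955, 1.27 and 0.734 CPM in the DMSO libraries. Its 3 isoxaben values thus stood above 4.5 and its DMSO values at or below 1.27, a log2 fold change of 2.31 ± 0.32 (SE, adjusted p = 0.000818). PEPR2 had 12.7, 13.4 and 18.2 CPM with isoxaben, against 6.61, 6.61 and 5.19 CPM with DMSO (log2 fold change 1.28 ± 0.16, adjusted p = 0.00022). Exons of PEPR2 overlap a gene on the opposite strand, and reads of the pair may not have been told apart. PROPEP1 rose by 1.33 ± 0.22, PROPEP2 by 2.17 ± 0.43 and PROPEP4 by 0.82 ± 0.16 on the log2 scale. PEPR1 was at 56.2 CPM with isoxaben and 47.7 CPM with DMSO and did not pass the test (log2 fold change 0.24, adjusted p = 0.715), and PROPEP5, PROPEP6 and PEP7 had log2 fold changes of -0.12, 0.19 and 0.09. PROPEP2 and PROPEP4 lost their calls without DMSO library 3 or isoxaben library 2, which left 3 called members.

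PROPEP2, PROPEP1 and PROPEP3 lie next to each other on the plus strand of chromosome 5, from 25934568 to 25940059, with no other gene of the files between them. Among all called genes, 6 pairs had no gene between them and 8 pairs had at most 2, and the members of all 8 pairs moved in the same direction.

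In the lists of calcium channels and of calmodulin-like and EF-hand proteins, 4 members rose and none fell. CNGC19 (chromosome 3, 6045002 to 6048488), a cyclic nucleotide gated calcium channel known from wounding, had 12.8, 15.7 and 15.3 CPM with isoxaben, against 3.82, 2.32 and 2.04 CPM with DMSO. It was the 1 gene of 31 tested channels of the CNGC and GLR families that passed (log2 fold change 2.45 ± 0.31, adjusted p = 0.00361). AT3G29000, an EF-hand protein, had 4.73, 4.59 and 2.86 CPM with isoxaben and 0.273, 0.703 and 0.21 CPM with DMSO, a 10.5-fold difference (adjusted p = 1.18e-05). The calmodulin-like gene CML39 (AT1G76640) had 3.67, 5.1 and 4.32 CPM with isoxaben and 0.818, 0.492 and 0.577 CPM with DMSO, a 6.98-fold difference (adjusted p = 2.85e-06). AT5G39670, a further EF-hand gene, rose by 1.35 ± 0.19 on the log2 scale. The EF-hand list had 3 risen members of 55 tested (5.45%, against 0.613% of all tested genes), with a median log2 fold change of 0.054. The 31 calcium-dependent protein kinases and 9 autoinhibited calcium ATPases had no called member. Outside these lists, the EF-hand protein gene PBP1, whose product binds the kinase PINOID, had 4.25, 5.22 and 5.23 CPM with isoxaben and 1.84, 2.11 and 0.943 CPM with DMSO (log2 fold change 1.64 ± 0.32, adjusted p = 0.00815), with its call lost in 2 of the 12 fits. CIPK13, a kinase of the family regulated by calcineurin B-like calcium sensors, had 2.51, 2.01 and 2.58 CPM with isoxaben and 0.477, 0.984 and 0.577 CPM with DMSO (1.79 ± 0.36, adjusted p = 0.0173), with its call lost in 5 of the 12 fits and an exon overlap with AT2G34170 on the opposite strand. Both were chosen after their values were seen. AT4G34150, a protein with a calcium-dependent lipid-binding domain, had 69.8, 74.8 and 65.1 CPM with isoxaben and 51.8, 55.5 and 44.7 CPM with DMSO (log2 fold change 0.47 ± 0.09, adjusted p = 0.00756).

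Of the 42 tested kinases of the MAP kinase cascade, MPK3 alone passed the test. MPK3, a kinase activated by wounding and microbial patterns, had 51.5, 46.2 and 48.7 CPM with isoxaben, against 30.8, 34.1 and 34.4 CPM with DMSO (log2 fold change 0.56 ± 0.10, adjusted p = 0.00607). Among the other lists of signalling kinases and phosphatases the MAP kinase list had a median of 0.046 and the 58 PP2C phosphatases one of 0.034, with no PP2C gene called.

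Transcription factor lists had 20 risen members (4.82%, against 0.613% of all tested genes) and 3 fallen members (0.723%, against 0.167%) among 415 tested. Their median log2 fold change was 0.034. Of their members 10 rose without DMSO library 3 or isoxaben library 2, 12 without DMSO library 1, and 13 without DMSO library 2 or isoxaben library 1. The smallest p of all tested genes belonged to ERF13 (chromosome 2, 18495341 to 18496272), an AP2/ERF activator of group IX. ERF13 had 6.57, 6.08 and 5.02 CPM with isoxaben, against 0.75, 0.352 and 0.681 CPM with DMSO, a 9.59-fold difference (log2 fold change 3.26 ± 0.25, adjusted p = 5.68e-07). ERF6, of the same group, had 9.85, 9.97 and 8.51 CPM with isoxaben and 3.61, 2.74 and 2.31 CPM with DMSO (log2 fold change 1.72 ± 0.16, adjusted p = 4.68e-06). ERF5 rose by 1.24 ± 0.25, although its call was lost in 6 of the 12 fits that leave out a library. The 11 tested group IX genes encode activators bound to GCC boxes in ethylene, jasmonate and stress responses. Of them 3 rose (27.3%, against 0.613% of all tested genes), and their median was 0.79. ERF-1, ERF2 and AT5G51190 of that group had log2 fold changes of 0.80, 0.79 and 1.24 that did not pass (adjusted p = 0.149, 0.906 and 0.0834). ERF11, of the repressor group VIII, rose by 1.38 ± 0.28 (1 of 8 tested, median 0.27), also with its call lost in 4 of the 12 fits. Called members of the whole AP2/ERF family, 5 in all, numbered 3 without DMSO library 1 or 3 or isoxaben library 2. In that family 4.6% rose and 1.15% fell, against 0.613% and 0.167% of all tested genes. AT4G13620, another AP2/ERF gene, had 11, 10.9 and 14.1 CPM with isoxaben and 16.9, 20.4 and 21.1 CPM with DMSO and was the 1 member of the 87 tested that fell (log2 fold change -0.70 ± 0.12, adjusted p = 0.00362).

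WRKY factors, which bind W boxes in promoters of defence genes, had 6 risen and 0 fallen members of 51 tested (median 0.17). The risen share was 11.8%, against 0.613% of all tested genes. WRKY40 (chromosome 1, 30383691 to 30385499), an early regulator of pattern responses, had 12.5, 16.3 and 13.6 CPM with isoxaben, against 4.09, 3.73 and 3.46 CPM with DMSO (log2 fold change 1.93 ± 0.18, adjusted p = 1.63e-05). Its partner WRKY18 had 47.3, 44.4 and 45.1 CPM with isoxaben and 37.3, 34.9 and 35.4 CPM with DMSO, a 1.27-fold difference. WRKY51 had 5.31, 2.58 and 1.33 CPM with isoxaben and 0.273, 0.141 and 0.0524 CPM with DMSO (log2 fold change 4.24 ± 0.64, adjusted p = 0.00362). WRKY38 had 7.34, 2.81 and 0.976 CPM with isoxaben and 0.205, 0.141 and 0.157 CPM with DMSO (log2 fold change 4.31 ± 0.81, adjusted p = 0.0362). In both genes isoxaben library 1 stood highest and library 3 lowest, and the call of WRKY38 was lost in 9 of the 12 fits that leave out a library. WRKY46 and WRKY33 rose by 1.09 and 1.68, with their calls lost in 9 and 8 of the 12 fits. The WRKY list kept 2 called members without isoxaben library 2 or ixr1-1 isoxaben library 3, and 3 without any of the DMSO libraries, isoxaben library 1 or ixr1-1 DMSO library 2.

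Zinc finger factors of the C2H2 class rose in 5 of 42 tested members (11.9%, against 0.613% of all tested genes) and fell in none. Their median was -0.0041, and 3 were called without DMSO library 3. ZAT10 (STZ), a repressor that acts in salt and oxidative stress, had 6.95, 6.82 and 5.37 CPM with isoxaben and 2.93, 2.46 and 1.78 CPM with DMSO (log2 fold change 1.43 ± 0.23, adjusted p = 0.00375). ZAT12 (RHL41) rose by 0.85 ± 0.16, ZAT11 by 0.97 ± 0.21 and AT3G53600 by 2.21 ± 0.37. The fifth member, MGP, known from root ground tissue patterning with SHORTROOT, rose by 1.09 ± 0.19 (7.44, 8.43 and 11 CPM with isoxaben, 4.77, 3.30 and 4.56 CPM with DMSO). The tandem CCCH zinc finger gene CZF1 had 64.4, 53.1 and 52.3 CPM with isoxaben and 29.8, 30.0 and 24.8 CPM with DMSO, a 2.0-fold difference (log2 fold change 1.00 ± 0.11, adjusted p = 9.62e-05). NAC factors had 3 risen members of 59 (5.08%, against 0.613% of all tested genes): ATAF2 (log2 fold change 0.90 ± 0.11), the membrane-bound NAC062 (0.51 ± 0.08) and NAC102 (0.46 ± 0.09). MYB factors moved both ways, with MYB77 and MYB73 risen by 0.46 and 0.41 and MYB61 and MYB59 changed by -0.79 and -0.37; without DMSO library 2 or 3, or without any 1 isoxaben library, 0 of the 82 tested MYB genes were called. AT3G56880, a VQ protein of the family that pairs with WRKY factors, had 29.1, 27.7 and 28.0 CPM with isoxaben and 15.4, 15.0 and 15.2 CPM with DMSO, a narrow spread around a log2 fold change of 0.89 ± 0.08 (adjusted p = 2.85e-06). It was the 1 called member of 21 VQ genes, whose median was 0.30.

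A list of 21 early genes of touch and wounding held 6 of these calls (CML39, WRKY40, WRKY18, ZAT10, ZAT12 and CZF1), 28.6% against 0.613% of all tested genes, with a median of 0.68 and 20 of 21 estimates above 0. All 6 genes are already given above. Lists were chosen with earlier results of these data known, so this share is not independent of the calls. TCH2, TCH3 and TCH4, named for their rise after touch, had log2 fold changes of 0.22, 0.26 and 0.16, none past the test (adjusted p = 0.884, 0.942 and 1.0). With only the 6 Col-0 libraries in the fit, 10 of the 21 passed. With 1 of the 12 libraries left out, between 4 and 7 rose.

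**Figure D2:**
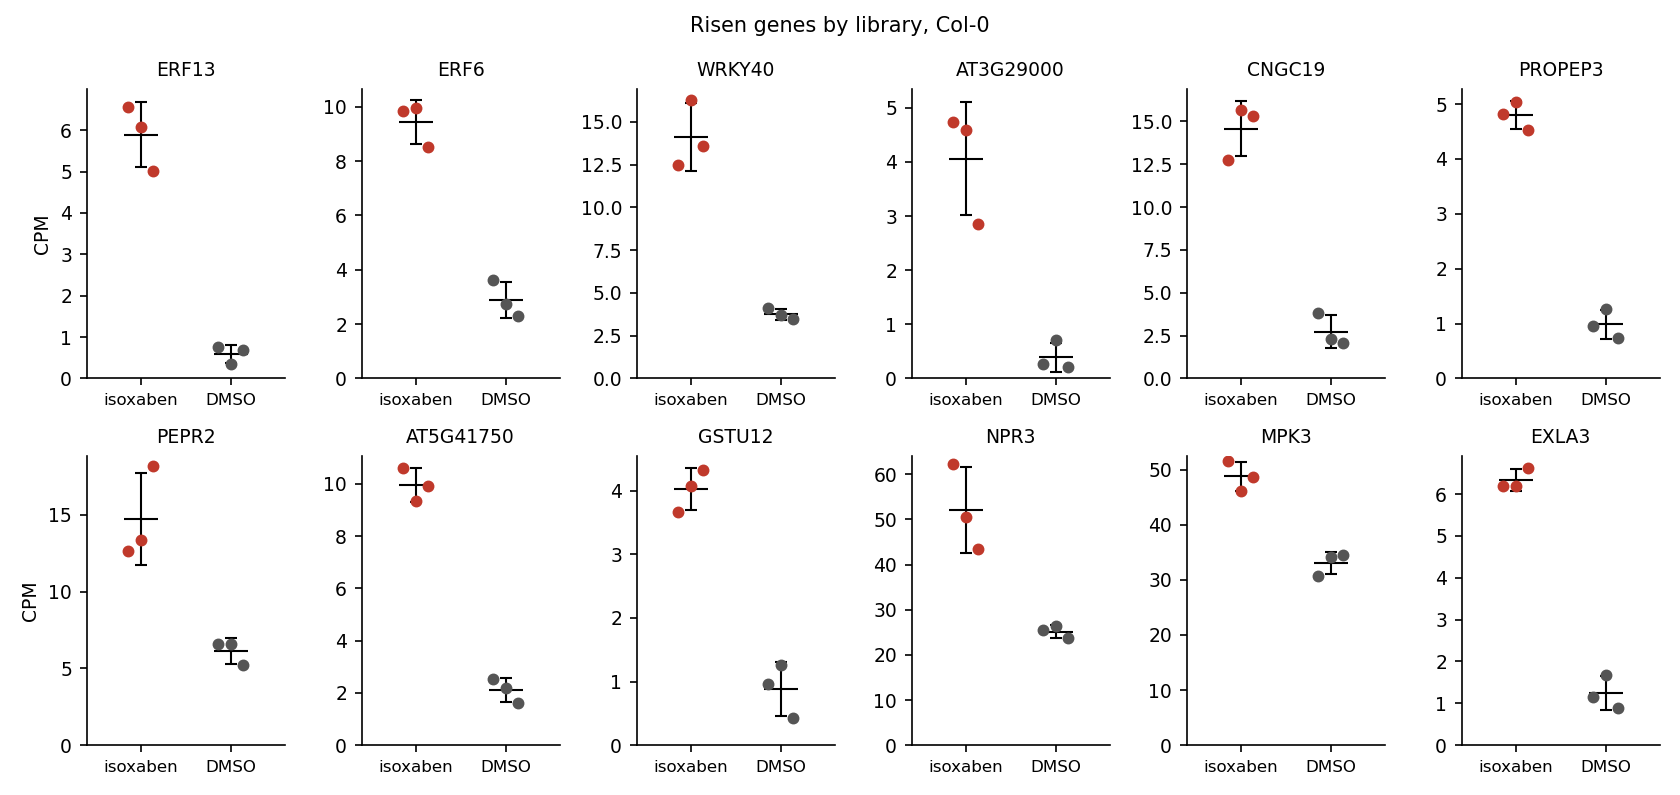
CPM of 12 risen genes in each Col-0 library (points, isoxaben on the left, DMSO on the right), with the mean and SD over 3 libraries as black marks; each panel has its own axis from 0. In each panel the 3 isoxaben libraries lie above the 3 DMSO libraries.

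Immune receptor genes with TIR or NB-LRR domains rose in 4 of 154 tested cases (2.6%, against 0.613% of all tested genes), with a median of 0.083. AT5G41750 (chromosome 5, 16693909 to 16698943), a TIR-NB-LRR gene, had 10.6, 9.34 and 9.90 CPM with isoxaben, against 2.52, 2.18 and 1.63 CPM with DMSO (log2 fold change 2.25 ± 0.21, adjusted p = 7.03e-06). AT4G14370 rose by 1.12 ± 0.15, AT3G04220 by 1.56 ± 0.27 and AT5G51630 by 0.49 ± 0.09. Of 40 receptor-like proteins RLP12 rose (0.64 ± 0.11), a call lost without DMSO library 3, and of 22 S-locus lectin receptor kinases B120 and AT1G61370 rose (0.86 and 0.58); both of these lost their calls without any 1 of the 6 Col-0 libraries. No member passed among the 35 cysteine-rich receptor kinases or the 33 L-type lectin receptor kinases, whose medians were 0.12 and 0.21. Genes of pattern-triggered immunity, from the flagellin receptor FLS2 to the oxidase RBOHD, had no called member among 21, with a median of 0.20 and 17 estimates above 0.

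Salicylate is the hormone of resistance to biotrophic pathogens. Of 13 tested genes of salicylate response 3 rose (23.1%), and of 12 tested genes of salicylate synthesis and the EDS1 node 2 rose (16.7%). Over all tested genes the risen share was 0.613%. NPR3, a salicylate receptor, had 62.2, 50.5 and 43.4 CPM with isoxaben, against 25.4, 26.4 and 23.6 CPM with DMSO (log2 fold change 1.04 ± 0.12, adjusted p = 0.000254). GRXC9 (GRX480), a glutaredoxin induced by salicylate, had 4.35, 4.13 and 2.37 CPM with isoxaben and 1.02, 0.562 and 0.472 CPM with DMSO (log2 fold change 2.41 ± 0.31, adjusted p = 0.00022). With WRKY38, they were the called genes of salicylate response (median 0.32), and all 3 were highest in isoxaben library 1. Among the 125 risen genes 62 were highest in isoxaben library 1, 26 in library 2 and 37 in library 3. PAD4, a lipase-like partner of EDS1, rose by 0.67 ± 0.11, and CBP60G, a calmodulin-binding activator of salicylate synthesis, by 1.08 ± 0.24 with its call lost in 6 of the 12 fits, among them those without isoxaben library 1 or 2 or DMSO library 1 or 3. The synthesis gene ICS1 (EDS16) was at 18.1 CPM with isoxaben and 20.2 CPM with DMSO, and PR1, the classical marker gene, at 1.08 and 1.14 CPM (log2 fold changes -0.16 and -0.02, adjusted p = 0.966 and 1.0).

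Of 53 tested glutathione transferases, enzymes of detoxification, 2 rose (3.77%, against 0.613% of all tested genes) around a median of -0.014. They were GSTU12 and GSTU11, adjacent tau-class genes on chromosome 1 (26334250 to 26338795, minus strand). GSTU12 had 3.67, 4.07 and 4.32 CPM with isoxaben and 0.955, 1.27 and 0.419 CPM with DMSO, and GSTU11 had 1.74, 1.72 and 2.02 CPM with isoxaben and 0.136, 0 and 0.21 CPM with DMSO. Their log2 fold changes were 2.25 ± 0.32 and 3.78 ± 0.52 (adjusted p = 0.000671 and 0.000461). GSTU11 rested on few counts in the DMSO libraries, so the size of its rise is uncertain. CYP706A2, a cytochrome P450 whose transcript resembles that of its neighbour AT4G22690, had 4.73, 6.53 and 5.86 CPM with isoxaben and 1.16, 0.844 and 0.786 CPM with DMSO (log2 fold change 2.64 ± 0.29, adjusted p = 5.27e-05). Among 178 tested P450 genes it was the 1 that rose (0.562%, near the 0.613% of all tested genes). CYP718 (-1.45 ± 0.25) and CYP51G2 (-1.07 ± 0.22), annotated as a transcribed pseudogene, fell (1.12%, against 0.167% of all tested genes). Both lost their calls without isoxaben library 2. None of 117 UDP-glycosyltransferases passed (median -0.05). AT3G44870, a methyltransferase gene, had 3.09, 7.91 and 9.07 CPM with isoxaben and 0.477, 0.633 and 0.105 CPM with DMSO (17.8-fold, adjusted p = 0.00756), a value that is uncertain because its transcript resembles AT3G44860 and overlaps AT3G44880 on the same strand.

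Several of the sharpest rises belonged to genes of other kinds. PP2-B14, an F-box protein with a phloem lectin domain, had 3.38, 4.18 and 4.11 CPM with isoxaben and 0.614, 1.06 and 0.524 CPM with DMSO (log2 fold change 2.45 ± 0.30, adjusted p = 0.000121). AT5G60350, an uncharacterized gene, held 88 counts over the isoxaben libraries and 3 over the DMSO libraries. The ratio of 33.7 has a 95% counting interval of 11.2 to 167, which covers counting error only and not the spread between libraries. AT5G28610, which the annotation likens weakly to an RNA helicase, had 4.25, 4.87 and 5.09 CPM with isoxaben, against 0.614, 0.562 and 0.472 CPM with DMSO (log2 fold change 3.11 ± 0.24, adjusted p = 5.68e-07). AT4G29780, annotated as a nuclease, had 23.9, 25.9 and 22.4 CPM with isoxaben and 10.2, 11.2 and 9.22 CPM with DMSO (1.25 ± 0.11, adjusted p = 2.85e-06). BCS1, an outer mitochondrial membrane AAA ATPase known as a marker of mitochondrial stress, had 43.0, 40.1 and 35.6 CPM with isoxaben and 14.9, 16.0 and 10.1 CPM with DMSO (1.55 ± 0.20, adjusted p = 0.00439). In AT5G28610, AT4G29780 and BCS1 the isoxaben libraries lay above the DMSO libraries without overlap, as in all 125 risen genes. Over all tested genes this held for 6.86%. AT1G14040, of the EXS family that holds PHO1-type phosphate exporters, had 26.9, 27.6 and 34.4 CPM with isoxaben and 14.7, 12.4 and 12.8 CPM with DMSO (1.16 ± 0.10, adjusted p = 2.85e-06). AT4G29780, BCS1, AT1G14040 and AT5G60350 were chosen after their values were seen. Heavy-metal associated proteins annotated as copper transport proteins rose in 3 of 39 tested members (7.69%, against 0.613% of all tested genes). The rises were 3.24 for AT5G52760, 2.2 for AT5G52710 and 1.90 for AT5G52670, which lie within a stretch of chromosome 5 from 21363655 to 21387703. AT5G52710 lost its call in 7 of the 12 fits. ABC transporters (87 tested) and MATE efflux carriers (41) had no called member, with medians of -0.015 and -0.034.

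SYP122, a plasma membrane syntaxin that works in secretion towards attacked walls, had 21, 22.8 and 21.2 CPM with isoxaben and 10.9, 12.2 and 10.5 CPM with DMSO (log2 fold change 0.96 ± 0.14, adjusted p = 0.00118). The exocyst subunit EXO70H8 rose by 1.3 ± 0.23 and the tetraspanin TET8, a marker of extracellular vesicles, by 0.53 ± 0.09 (76.8, 75.7 and 65.0 CPM with isoxaben, 46.2, 56.5 and 48.0 CPM with DMSO). Together they were 3 of 64 tested syntaxin, exocyst and tetraspanin genes (4.69%, against 0.613% of all tested genes), a list drawn up after the values were seen. Without DMSO library 3 it had 1 called member. The F-box stress gene FBS1 rose by 1.13 ± 0.19 as 1 of 168 genes of the F-box list (PP2-B14 was counted with the phloem lectins). The RING ligase genes ATL5 and AT5G43420 rose by 0.81 and 0.77 as 2 of 209, with both calls lost without DMSO library 3. The shares of the F-box list (0.595%) and of the RING list (0.957%) were near that of all tested genes (0.613%). Proteasome subunits had 0 called members of 39 and cytosolic ribosomal proteins 0 of 320, with medians of -0.036 and -0.013.

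Wall genes had 13 fallen (2.84%, against 0.167% of all tested genes) and 5 risen members (1.09%, against 0.613%) of 458 tested. Their median was -0.035. More falls than rises did not hold without isoxaben library 2, with 4 fallen and 4 risen. There were 4 fallen and 2 risen without DMSO library 3. Without DMSO library 2, and likewise without isoxaben library 3, 7 fell and 3 rose. Without DMSO library 1, 20 fell and 6 rose. The wall lists include subtilases (1 risen of 32 tested), early nodulin-like proteins (1 fallen of 14) and glyoxal and galactose oxidases (1 fallen of 5). Lists were chosen with earlier results of these data known, and some after values were seen, so the pooled shares are not independent of the calls. Pectin-related genes fell in 5 cases and rose in 0. They were 3 of 51 pectin methylesterases and their inhibitors (5.88%) and 2 of 57 pectin lyase-like proteins and polygalacturonases (3.51%), against 0.167% of all tested genes. AT4G25250 (chromosome 4, 12934562 to 12935373, a single exon), annotated as an invertase or pectin methylesterase inhibitor, had 5.79, 5.33 and 7.46 CPM with isoxaben, against 15.0, 15.3 and 20.9 CPM with DMSO. It was 2.77-fold lower with isoxaben (log2 fold change -1.47 ± 0.20, adjusted p = 0.00237). AT1G05650, a pectin lyase-like gene, had 8.11, 7.57 and 7.53 CPM with isoxaben and 15.3, 18.0 and 19.5 CPM with DMSO (log2 fold change -1.20 ± 0.12, adjusted p = 7.03e-06). Its neighbour AT1G05660 fell by 0.64 ± 0.14, but its call was lost in 8 of the 12 fits, and the transcripts of the pair resemble each other, so reads may be shared between them. The methylesterase genes PME2 and RHS12 fell by 0.59 ± 0.13 and 0.85 ± 0.16. Without isoxaben library 2, isoxaben library 3 or DMSO library 3, AT4G25250 was the 1 called member of the methylesterase and inhibitor list.

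Arabinogalactan proteins, glycoproteins of the wall and plasma membrane, had 2 fallen members of 45 (4.44%, against 0.167% of all tested genes). AGP4 had 34.1, 33.4 and 28.2 CPM with isoxaben and 42.3, 45.4 and 53.0 CPM with DMSO (log2 fold change -0.56 ± 0.09, adjusted p = 0.00272), and AGP14 had 17.4, 19.0 and 17.3 CPM with isoxaben and 22.6, 26.5 and 30.1 CPM with DMSO (-0.56 ± 0.10, adjusted p = 0.0049). AGP14 lost its call without DMSO library 3. Class III peroxidases, which crosslink or loosen wall polymers, moved both ways among 60 tested: AT1G14550 rose by 1.81 ± 0.24, whereas AT5G15180 fell by 0.59 ± 0.12 and AT4G30170 by 0.41 ± 0.09. Risen and fallen members made up 1.67% and 3.33%, against 0.613% and 0.167% of all tested genes. Called peroxidases numbered 1 without DMSO library 2 or 3 or isoxaben library 1 or 2, and 7 without DMSO library 1. Xyloglucan-modifying XTH genes did likewise, with XTH20 risen by 0.53 ± 0.12 and XTH8 fallen by 0.35 ± 0.08 of 28 tested, both near the threshold (adjusted p = 0.0486 and 0.0385) and with their calls lost in 9 and 6 of the 12 fits. Each way this was 3.57% of the XTH genes, against 0.613% risen and 0.167% fallen over all tested genes. Expansins, which loosen walls, had 2 risen members of 24 (8.33%, against 0.613% of all tested genes). EXLA3 (chromosome 3, 16892756 to 16893900) had 6.18, 6.19 and 6.63 CPM with isoxaben, against 1.16, 1.69 and 0.891 CPM with DMSO (log2 fold change 2.37 ± 0.23, adjusted p = 7.03e-06), and EXPA12 rose by 2.02 ± 0.44 with its call lost in 4 of the 12 fits. The growth-related EXO had 257, 249 and 226 CPM with isoxaben and 199, 196 and 191 CPM with DMSO, 1.25-fold higher, with its call lost in 7 of the 12 fits.

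Of 31 tested root hair genes 2 fell (6.45%, against 0.167% of all tested genes) and 0 rose. COBL9 (SHV2), a GPI-anchored protein needed for root hair growth, had 7.34, 6.08 and 6.49 CPM with isoxaben, against 12.3, 11.7 and 12.8 CPM with DMSO (log2 fold change -0.91 ± 0.16, adjusted p = 0.00508). RHS12, also counted above with the pectin methylesterases, had 7.34, 4.76 and 5.44 CPM with isoxaben and 10.2, 10.3 and 10.3 CPM with DMSO (adjusted p = 0.00814). Neither was called without isoxaben library 2. The median log2 fold change of the 31 was -0.27, against -0.0014 over all genes, and the other 29 did not pass the test. The 6 root markers, which include COBL9 and give 183.1 to 216.0 CPM with isoxaben and 195.3 to 225.7 CPM with DMSO, had 1 fallen member, COBL9 itself, and 0 of the 6 were at 0; their part in the falls of root hair and wall genes was not tested.

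Further fallen genes belonged to other lists or to none. The auxin-responsive SAUR gene AT4G31320 had 10.0, 8.02 and 8.02 CPM with isoxaben, against 14.3, 14.1 and 16.5 CPM with DMSO (log2 fold change -0.81 ± 0.14, adjusted p = 0.00375), as 1 of 54 SAUR genes. CER4, a fatty acyl reductase that makes alcohols of the cuticular wax, had 5.70, 4.07 and 4.60 CPM with isoxaben and 8.25, 9.56 and 8.28 CPM with DMSO (-0.88 ± 0.15, adjusted p = 0.00419). AT5G24100, a leucine-rich repeat kinase gene, had 5.41, 6.08 and 6.97 CPM with isoxaben and 10.5, 13.2 and 13.7 CPM with DMSO (-1.01 ± 0.16, adjusted p = 0.00337), and AT1G08590 of the same class fell by 0.47 ± 0.09, the 2 called members of 156. The fallen share of that class was 1.28%, against 0.167% of all tested genes. AT1G08590 was not called without DMSO library 1 or 3 or isoxaben library 2. GRI, a secreted cysteine-rich protein involved in cell death, fell by 0.98 ± 0.20. The hexose transporter STP1 had 43.5, 36.6 and 35.0 CPM with isoxaben and 50.9, 51.3 and 53.6 CPM with DMSO (-0.45 ± 0.09, adjusted p = 0.0279).

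**Figure D3:**
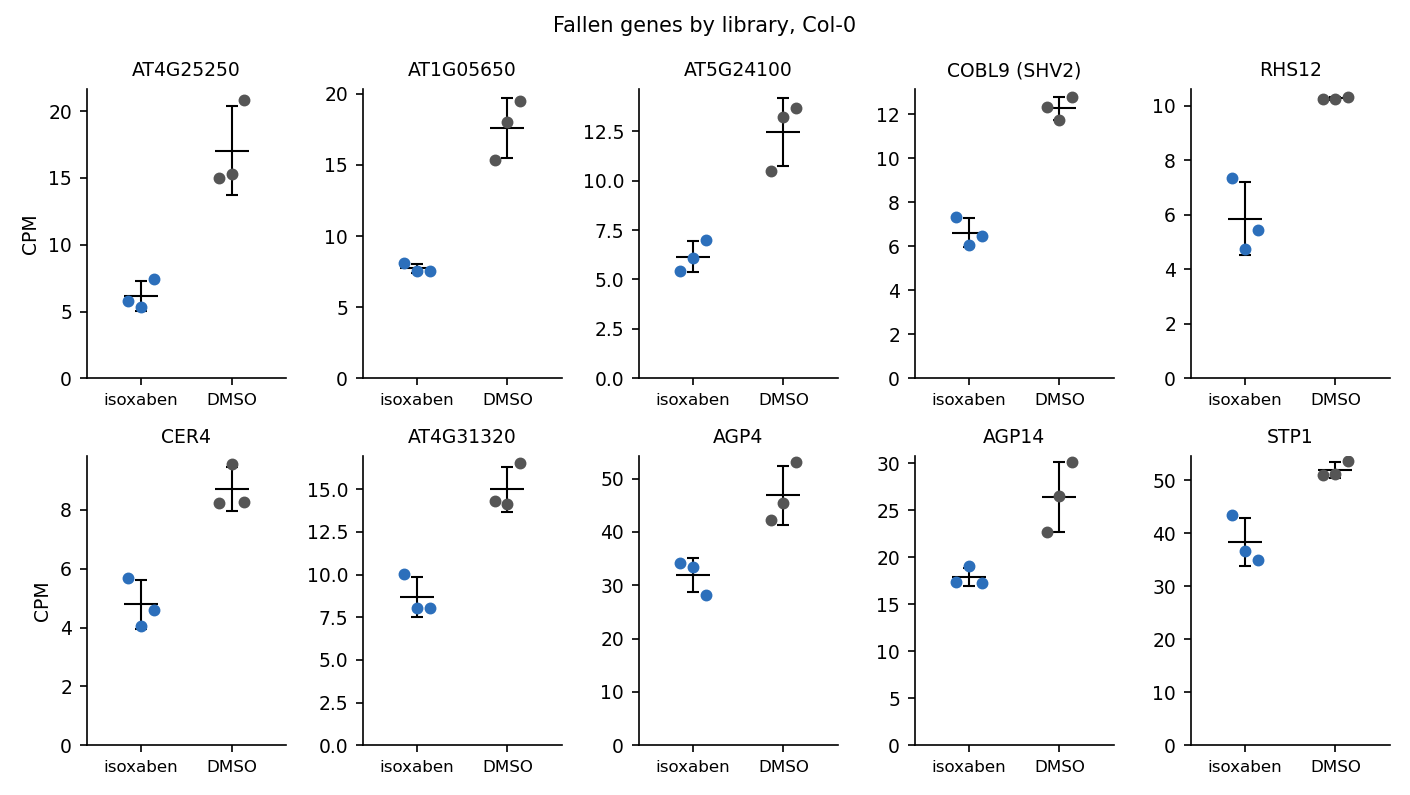
CPM of 10 fallen genes in each Col-0 library (points, isoxaben on the left, DMSO on the right), with the mean and SD over 3 libraries as black marks; each panel has its own axis from 0. In each panel the 3 isoxaben libraries lie below the 3 DMSO libraries.

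Transcripts of the cellulose machinery itself were measured at high depth and no change was called. CESA3 (CEV1), the gene mutated in ixr1-1, had 607, 531 and 561 CPM with isoxaben and 564, 603 and 569 CPM with DMSO (log2 fold change -0.03 ± 0.10, adjusted p = 1.0). CESA1 had 622, 547 and 564 CPM with isoxaben and 587, 632 and 597 CPM with DMSO (-0.07 ± 0.09), and CESA6 had 495, 446 and 424 CPM with isoxaben and 463, 507 and 452 CPM with DMSO (-0.06 ± 0.09). The libraries of the groups overlapped in all 3 genes. None of 9 tested CESA genes, 22 cellulose synthase-like genes, 13 callose synthases, 13 genes of primary wall cellulose synthesis, 15 of secondary walls and 19 tubulins passed. The same held for 17 genes of wall integrity sensing, among them THESEUS1 (THE1, 153 CPM with isoxaben, 148 CPM with DMSO, log2 fold change 0.05) and FERONIA (FER, 257 CPM with isoxaben and 248 CPM with DMSO, 0.05), for 15 wall-associated kinases and for 10 RALF peptides.

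Of the 84 functional lists, 42 had no called member. Besides those just given they covered synthesis and response of several hormones. Ethylene synthesis (12 tested) had a median of -0.028, jasmonate synthesis (13) -0.057, jasmonate signalling (21) -0.016, abscisic acid response (14) -0.044 and brassinosteroid genes (13) -0.07. The member nearest the threshold was LOX4 for jasmonate synthesis (log2 fold change 0.945, adjusted p = 0.0575) and AT1G77330 for ethylene synthesis (-0.68, adjusted p = 0.0585). Genes of lignin and phenylpropanoid synthesis had a median of -0.065 over 18 and indole glucosinolate and camalexin genes one of 0.001 over 16, where MYB51 came nearest (0.48, adjusted p = 0.0573). Photosystem and antenna genes (67) had a median of 0.014 and clock genes (11) one of -0.002.

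**Figure D4:**
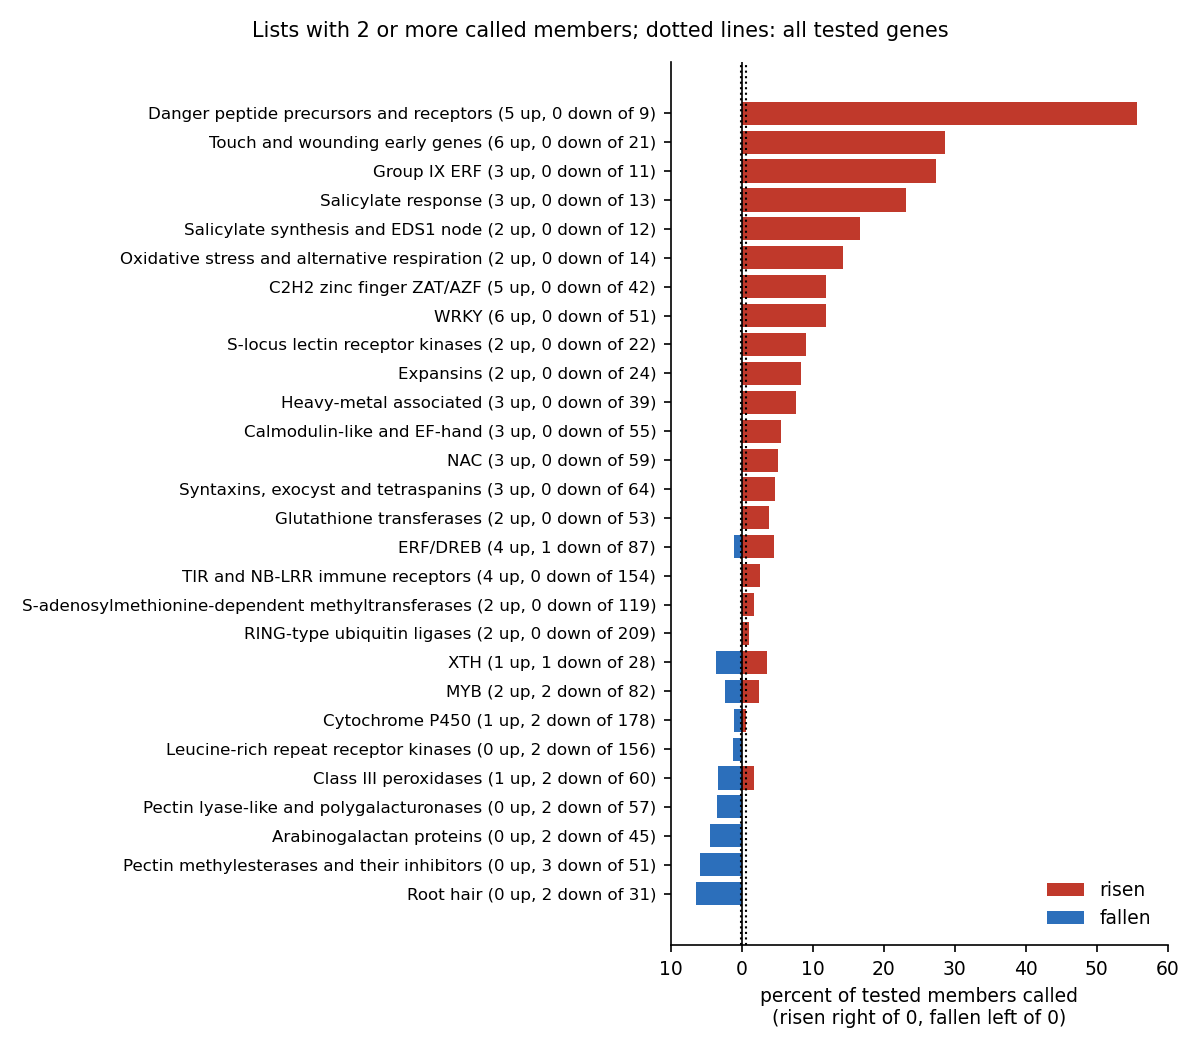
Percent of tested members that rose (red, right of 0) or fell (blue, left of 0) in each list with 2 or more called members; the dotted lines mark 0.613% risen and 0.167% fallen over all tested genes. Danger peptide genes lead with 5 of 9 risen, and the root hair list has 2 of 31 fallen.

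The called genes shared features of gene structure. Single-exon genes made up 40.0% of those that rose and 41.2% of those that fell, against 17.2% of all tested genes. The median number of exons was 2 for risen, 2 for fallen and 4 for all tested genes, and the median transcript length 1335, 1263 and 1543 bases. The median level was 6.48 CPM for risen, 11.7 CPM for fallen and 16.9 CPM for all tested genes. Under 5 CPM lay 45.6% of risen genes, 14.7% of fallen genes and 23.7% of all tested genes.

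In ixr1-1 no gene passed for the same treatment in edgeR's fit without a replicate block (0.00%, smallest adjusted p 0.694, 742 genes at an unadjusted p under 0.05, against 1387 in Col-0), and DESeq2 and limma-voom also called 0. The median ixr1-1 estimate (log2) was -0.05 for the 125 genes risen in Col-0 and 0.07 for the 34 that fell there. In ixr1-1, 49 of the 125 risen genes had an estimate above 0 and 76 one below, and 10 of the 34 fallen genes one below 0 and 24 one above. The difference between the effects in ixr1-1 and in Col-0, tested as an interaction in the same fit, passed for 64 genes (0.314%), 52 (0.255%) with a lower and 12 (0.0589%) with a higher effect in ixr1-1. Of the genes called in Col-0, the difference passed for 51 of the 125 risen and 12 of the 34 fallen, and for the rest it was not called. The interaction test, with 64 genes passing, uses the Col-0 libraries that also made the calls. The count was 22 without ixr1-1 DMSO library 2, 28 without Col-0 DMSO library 3, 29, 37 and 113 without ixr1-1 isoxaben libraries 3, 1 and 2, and 36 without Col-0 isoxaben library 2.

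WRKY40 had 13.5, 19.2 and 19.4 CPM in ixr1-1 isoxaben and 14.5, 18.9 and 21.5 CPM in ixr1-1 DMSO libraries (log2 fold change -0.08 ± 0.15), a difference from the Col-0 effect of -2.0 (adjusted p = 0.000519). ERF13 had 2.45, 2.41 and 2.31 CPM in ixr1-1 isoxaben and 2.22, 2.72 and 1.75 CPM in ixr1-1 DMSO libraries (0.04 ± 0.23), a difference of -3.22 (adjusted p = 0.000154). AT5G41750 had 5.52, 9.42 and 5.88 CPM in ixr1-1 isoxaben and 7.36, 8.26 and 10.3 CPM in ixr1-1 DMSO libraries (-0.30 ± 0.19), a difference of -2.56 (adjusted p = 0.000154). In each of these 3 genes the ixr1-1 groups overlapped, and the ixr1-1 DMSO libraries lay above the Col-0 DMSO libraries. For WRKY40 and AT5G41750 the ixr1-1 DMSO libraries overlapped the range of the Col-0 isoxaben libraries, while for ERF13 they lay below it. The part of this higher level without isoxaben in the differences between the genotypes was not tested. Of the fallen genes, AT4G25250 had 17.8, 11.3 and 17.5 CPM in ixr1-1 isoxaben and 13.8, 11.12 and 11.3 CPM in ixr1-1 DMSO libraries, a difference from Col-0 of 1.85 (adjusted p = 0.0108), and AT1G05650 had one of 1.11 (adjusted p = 0.00202).

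Some genes called in Col-0 had an ixr1-1 estimate of the same sign. MGP had an ixr1-1 log2 fold change of 0.58 ± 0.22, next to 1.09 in Col-0, and CYCP3;2, a P-type cyclin, one of 0.64 ± 0.17, next to 1.03 in Col-0. RHS12 had one of -0.45 ± 0.16, next to -0.85 in Col-0. These 3 were chosen after their values were seen. None of them passed in ixr1-1 after adjustment, and their differences between the genotypes did not pass either (-0.51, -0.39 and 0.40, adjusted p = 1.0 for each).

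**Figure D5:**
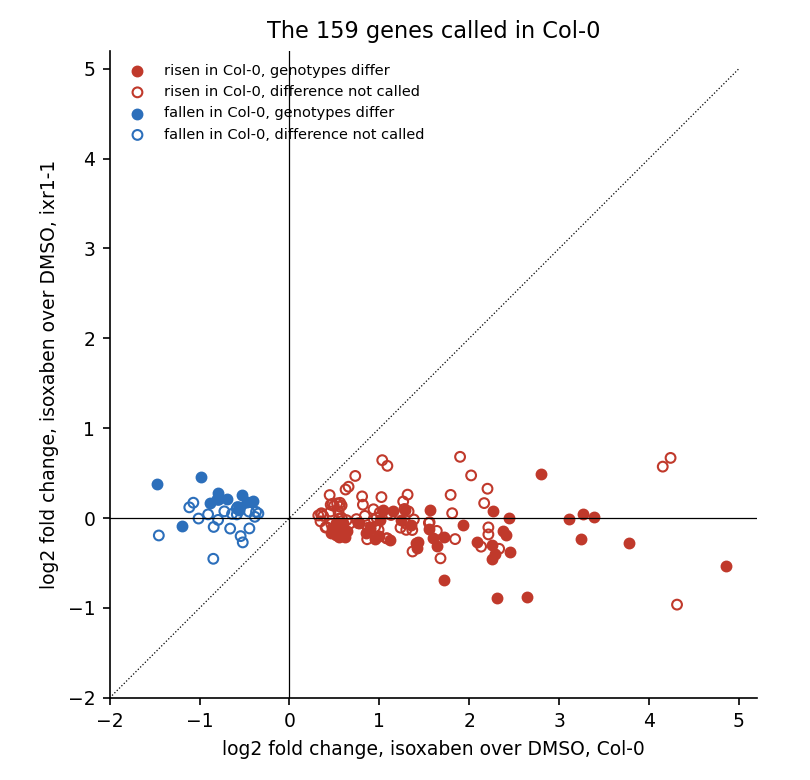
Log2 fold change of the 159 genes called in Col-0, isoxaben over DMSO, in ixr1-1 (vertical axis) against Col-0 (horizontal axis); filled points passed the test of the difference between the genotypes and the dotted line marks equal effects. The ixr1-1 estimates lie around 0 for genes that rose (red) and fell (blue) in Col-0, with medians of -0.05 and 0.07.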

How the data were processed

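RNA-seq of 12 Arabidopsis seedling libraries (3 for each of isoxaben and DMSO in Col-0 and in ixr1-1) was made with a stranded mRNA kit, per the labels' protocols. The authors deposited whole-number read counts per gene for each library; reads were processed with bcl2fastq, FastQC 11.1, STAR 2.4.1 and featureCounts 1.4.6, per the submitters' processing notes, while for genome build, annotation and strand setting the sources used here give nothing. Of 120747 gaps between the exons listed in the files, 97.9% carry the usual splice site letters at both ends on TAIR10.1. Gene positions are those of the files, and names come from RefSeq for 32835 of 33602 genes.

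From the counts, edgeR 4.0.16 (R 4.3.3) was run with filterByExpr, TMM scaling and a robust quasi-likelihood fit with a term for each of the 4 groups over all 12 libraries. P-values were Benjamini-Hochberg adjusted over 20379 genes with a threshold of 0.05, and the SE of a log2 fold change is its size divided by the root of the F statistic. DESeq2 1.42.0, limma 3.58.1 (voom), other scalings and filters, replicate blocks, the 6 libraries of a genotype alone and the omission of each library were alternatives. The fit was tested on simulated data.

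Functional lists were built from RefSeq product names and textbook members. Genes and lists were chosen with earlier results of these data known, and some lists were added after values were seen. The genes given with values are the largest significant changes in each direction among genes with an average log2 CPM of at least 1, the called members of the lists, the called genes at the highest levels, and adjacent called genes, with CESA1, CESA3 and CESA6 whatever their test; in lists with no call the member nearest the threshold may be named. Other genes without a call (PEPR1, PROPEP5, PROPEP6, PEP7, ERF-1, ERF2, AT5G51190, TCH2, TCH3, TCH4, ICS1, PR1, THE1 and FER) are known members of their lists, named after their values were seen. Transcripts were compared with blastn 2.17.0 and called similar at 90% identity over 50% of the length. Library totals bound the precision of low genes, and counting intervals (95%) cover counting error only.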

Additional observations from a re-analysis of the deposited data

Results flagged for a closer look

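With 3 libraries in each group, no library was checked for standing apart within its group. The 44 genes given here are named genes of the Col-0 comparison for which the effect of isoxaben differed between the genotypes in edgeR's interaction test at a Benjamini-Hochberg adjusted p under 0.05. Each value is the log2 fold change in ixr1-1 minus that in Col-0, so that a negative value means a smaller or opposite effect in ixr1-1 of a gene that rose in Col-0. The test shares the Col-0 libraries with the calls, and the seed transcripts of the ixr1-1 libraries move with the genotype.

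Among danger peptide, calcium and kinase genes the difference was -3.20 for PROPEP3, -1.19 for PEPR2, -3.38 for AT3G29000, -2.31 for AT1G76640 (CML39), -2.45 for CNGC19, -1.43 for AT5G39670, -0.585 for AT4G34150 and -0.765 for MPK3. Transcription factor genes and their partners gave -3.22 for ERF13, -1.93 for ERF6, -2.0 for WRKY40, -1.70 for STZ (ZAT10), -1.02 for RHL41 (ZAT12), -1.02 for CZF1, -1.02 for ATAF2, -0.568 for NAC062 and -0.985 for AT3G56880. Immune and salicylate genes gave -2.56 for AT5G41750, -1.36 for AT4G14370, -0.784 for RLP12, -2.59 for GRX480 and -0.949 for NPR3. Genes of detoxification, transport, traffic and other functions gave -4.07 for GSTU11, -2.71 for GSTU12, -3.52 for CYP706A2, -3.48 for AT5G52760, -3.12 for AT5G28610, -2.83 for PP2-B14, -2.69 for AT1G13480, -1.69 for AT2G32020, -0.83 for AT1G09932, -1.19 for SYP122, -0.642 for TET8 and, in the wall, -2.51 for EXLA3.

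Genes that fell in Col-0 had positive differences. They were 1.85 for AT4G25250, 1.44 for GRI, 1.11 for AT1G05650, 1.06 for CER4, 1.02 for AT4G31320, 0.907 for AT4G13620, 0.687 for AGP4, 0.655 for AGP14, 0.65 for AT1G08590 and 0.599 for AT4G30170. CYP706A2 had 2.35, 4.18 and 2.31 CPM in ixr1-1 isoxaben libraries and 3.39, 6.11 and 6.43 CPM in ixr1-1 DMSO libraries, and PROPEP3 had 1.63, 2.41 and 1.98 CPM in ixr1-1 isoxaben libraries and 2.10, 3.10 and 6.23 CPM in ixr1-1 DMSO libraries. Their ixr1-1 log2 fold changes were thus below 0, at -0.88 and -0.89, without passing the test in ixr1-1. For CYP706A2 and PROPEP3 the ixr1-1 DMSO libraries lay above the Col-0 DMSO libraries. For CYP706A2 they overlapped the range of the Col-0 isoxaben libraries. For PROPEP3 the values of 2.10 and 3.10 CPM lay below that range and the value of 6.23 CPM above it. The part of this higher level without isoxaben in the differences of CYP706A2 and PROPEP3 was not tested.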

How the results depend on the processing

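Against 125 risen and 34 fallen genes in Col-0, the fit of the 6 Col-0 libraries alone called 189 (120 of them shared) and 54 (30 shared), and a required fold of at least 2 left 71 and 6. DESeq2 called 151 and 42, and limma-voom 117 and 29. Leaving out 1 library gave 64 to 149 risen and 7 to 44 fallen genes. Deviations of same-numbered libraries correlated at 0.0293, 0.204 and 0.289 in Col-0 and at 0.299, 0.372 and 0.0178 in ixr1-1; since 1 pair in each genotype stayed under 0.1, the numbers were not taken to pair the libraries. Of the 6 isoxaben libraries 4 correlated best with their own number, as a hint from the data, while Col-0 library 1 correlated at 0.0612 with DMSO library 2 and ixr1-1 library 3 at 0.174 with DMSO library 1. A replicate block by number within each genotype called 261 risen and 106 fallen genes, 13 genes in ixr1-1 (against 0) and 180 in the interaction (against 64), and a block by number across genotypes 177 risen and 56 fallen genes, 1 in ixr1-1 and 99 in the interaction. DESeq2 called 103 genes in the interaction, against 64, and leaving out 1 library gave 22 to 113. Among 101 genes followed through all settings, 1844 fits kept direction and call, 274 kept only the direction and 1 changed sign: the log2 fold change of CEV1 (CESA3), which ran from -0.0837 to 0.0132 with 1 library left out and was above 0 without Col-0 isoxaben library 2. DESeq2 size factors moved the median of all genes by under 0.1, with 121 risen and 33 fallen genes, and so did scaling by library size alone, with 134 and 32. Over all tested genes the median SE was 0.107 on the log2 scale. Depth limits genes that rest on few counts in the DMSO libraries of Col-0, such as AT5G60350 with 3 and also GSTU11.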
